A study of Arabidopsis thaliana with 12 samples.

Results

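The ER body and jacalin lectin genes are 10 Arabidopsis genes picked by locus: PYK10 (AT3G09260), BGLU21 (AT1G66270), BGLU22 (AT1G66280), NAI1 (AT2G22770), NAI2 (AT3G15950), MEB1 (AT4G27860), MEB2 (AT5G24290), PBP1 (AT3G16420), JAL33 (AT3G16450) and JAL35 (AT3G16470). All 10 are among the 18366 genes of the 14-day table and the 19397 genes of the 7-day table. Messenger RNA was sequenced from 12 samples of whole Col-0 seedlings in 4 groups of 3. One experiment set pfd4 against wild type (WT) at an age of 14 days (labelled LD, collected at ZT1, titled mock with no treatment described). The other set 6x_pfd against WT at an age of 7 days (labelled LL), and all groups grew in vitro. The labels give neither the alleles nor how seedlings were pooled. The mutants are named for prefoldin, a complex of 6 different subunits that keeps new tubulin and actin chains from aggregating until they are folded. PFD4 was at -1.99 ± 0.17 in pfd4, and the subunit genes lay between -7.03 ± 0.42 (PFD1) and -0.16 ± 0.10 (PFD6, not past the threshold) in 6x_pfd in the authors' deposited tables. Throughout, ± is the standard error (SE) of a log2 fold change, mutant over WT, and a gene rose or fell where its adjusted p was below 0.05 over the whole table.

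ER bodies are spindle-shaped compartments, continuous with the endoplasmic reticulum (ER), that plants of the cabbage order pack with beta-glucosidases. In Arabidopsis seedlings they are found in the root and in the epidermis of the hypocotyl and cotyledons, where PYK10 is their main protein. When the cell is broken, PYK10 meets glucosides kept elsewhere and also cytosolic jacalin-related lectins such as PBP1, with which it forms large complexes. A second, inducible kind forms in rosette leaves after wounding or jasmonate treatment and holds the beta-glucosidase BGLU18.

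Among the 10 genes, changes were small in both mutants, and 1 gene, the lectin gene JAL35, passed the threshold in both. Of all tested genes, 7.75% passed in pfd4 and 33.6% in 6x_pfd, and the share passing in both is not given here. In pfd4 at 14 days NAI1 and JAL35 rose by 0.36 and 0.39 on the log2 scale. In 6x_pfd at 7 days PYK10 and PBP1 fell by 0.23 and 0.37 and JAL35 rose by 0.40. In contrast to these sizes, BGLU18 and TSA1, genes of the inducible ER body, and 3 lectin genes next to one another among the measured genes of chromosome 1 had log2 fold changes between 0.94 and 4.21 in both mutants, given further on.

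The transcripts spanned a wide range of levels. Levels are the normalized counts that the authors' deposited tables give as a mean per gene, divided here by the exonic length of the gene. The sources used here do not say which libraries entered that mean, so a level cannot be given to 1 genotype. PYK10 stood first among the 10 genes with 32655 counts per kb in the 14-day table and 97884 in the 7-day table. Its mean count was the 38th highest of all genes at 14 days and the 5th highest at 7 days, and amounted to 0.202% and 0.546% of all mean counts of each table. PBP1 followed with 11579 and 31073 counts per kb, then JAL33 with 3850 and 11206. NAI2, which is needed to form the ER body, had 3114 and 8308 counts per kb, and JAL35 had 2468 and 5820.

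BGLU21 and BGLU22, the closest relatives of PYK10, lay lower, with 960.1 and 525.2 counts per kb at 14 days and 3201 and 2517 at 7 days. NAI1, the basic helix-loop-helix transcription factor on which the expression of PYK10 depends, had 521.3 and 1180 counts per kb. MEB1 and MEB2, membrane proteins of the ER body that belong to a family of iron transporters, came last with 384.2 and 106.5 at 14 days and 965.0 and 368.8 at 7 days. The order of the 10 genes was the same in both tables. Together they held 0.348% of all mean counts at 14 days and 0.907% at 7 days, of which PYK10 made up 58.0% and 60.2%. Age and light regime differ between the tables, which were normalized separately and hold no values per library, so the levels were not tested between ages and their spread over samples is not known.

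**Figure D1:**
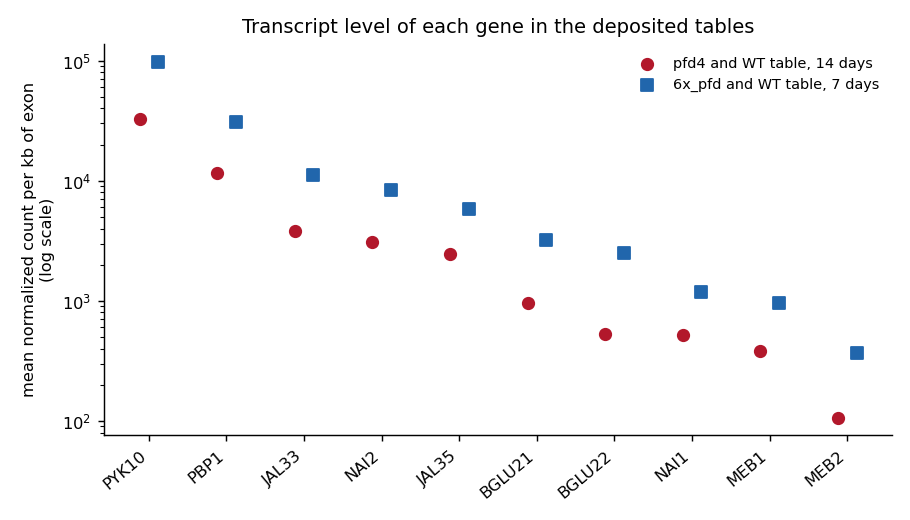
Mean normalized count per kb of exon (log scale) of the 10 genes in the pfd4 and WT table at 14 days (red circles) and in the 6x_pfd and WT table at 7 days (blue squares), in falling order of the 7-day level. PYK10 is highest and MEB2 lowest in both tables, at 32655 and 106.5 counts per kb at 14 days and 97884 and 368.8 at 7 days.

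Of the beta-glucosidase genes, PYK10 had a log2 fold change of 0.14 ± 0.07 in pfd4 (adjusted p = 0.271) and fell by 0.23 ± 0.08 in 6x_pfd (adjusted p = 0.0204) in the authors' deposited tables. These are folds of 1.10 and 0.85, with 95% intervals on the log2 scale of -0.0014 to 0.28 and -0.39 to -0.07. BGLU21 was at -0.39 ± 0.32 in pfd4 (adjusted p = 0.57) and at 0.14 ± 0.12 in 6x_pfd (adjusted p = 0.392) in the authors' deposited tables. BGLU22 was at -0.44 ± 0.36 (adjusted p = 0.573) and -0.18 ± 0.12 (adjusted p = 0.247) in the same order, again in the authors' deposited tables. Neither of the pair passed in either mutant, and in pfd4 their intervals reached down to -1.02 and -1.13, so a change of 2-fold lay within the error there.

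Those intervals were wide for the counts behind them. The SE of BGLU21 in pfd4 was larger than that of 98.5% of 4745 genes whose mean count lay within a factor of 2 of its own, and that of BGLU22 larger than that of 98.8% of 6558 such genes. PYK10, in contrast, had an SE above that of 17.4% of 86 such genes there. At 7 days the SEs of BGLU21 and BGLU22 stood at the 82.8 and 83.0 percentiles. The coding sequences of BGLU21 and BGLU22, which are neighbours on chromosome 1, share 93.3% of their bases and an identical stretch of 80 bases in the RefSeq annotation of TAIR10.1. PYK10 shares 83.7% with BGLU21 and 83.4% with BGLU22, and at most 44 bases in a row. The sources used here do not say how the authors' counting treated reads that fit more than 1 of these genes. The values of BGLU21 and BGLU22 are uncertain on that account, and the part of such reads in their SEs was not tested.

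Among the genes that build or control the ER body, NAI1 rose in pfd4 by 0.36 ± 0.12 (adjusted p = 0.0291) and was at -0.05 ± 0.08 in 6x_pfd (adjusted p = 0.691) in the authors' deposited tables. NAI2 was at 0.02 ± 0.09 in pfd4 (adjusted p = 0.941) and at -0.18 ± 0.08 in 6x_pfd (adjusted p = 0.0679) in the authors' deposited tables. MEB1 was at 0.33 ± 0.13 in pfd4, with adjusted p = 0.113, and at -0.09 ± 0.09 in 6x_pfd, with adjusted p = 0.486, in the authors' deposited tables. MEB2, the least abundant, was at 0.25 ± 0.18 and -0.14 ± 0.13 in the authors' deposited tables and passed in neither (adjusted p = 0.505 and 0.452). So the regulator gene was the 1 gene of these 4 past the threshold, in 1 mutant, with a fold of 1.29.

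The lectin genes differed among themselves. PBP1, whose product binds PYK10, was at 0.18 ± 0.11 in pfd4 (adjusted p = 0.395) and fell by 0.37 ± 0.08 in 6x_pfd (adjusted p = 1.16e-05) in the authors' deposited tables, a fold of 0.77. JAL33 was at 0.25 ± 0.11 in pfd4 (adjusted p = 0.145) and at -0.12 ± 0.10 in 6x_pfd (adjusted p = 0.371) in the authors' deposited tables. JAL35, whose synonym in the annotation is JASMONATE RESPONSIVE 1, rose in both, by 0.39 ± 0.11 in pfd4 (adjusted p = 0.0101) and by 0.40 ± 0.10 in 6x_pfd (adjusted p = 5.11e-04) in the authors' deposited tables. Its folds were 1.31 and 1.32. JAL35 overlaps its neighbour JAL34 on the opposite strand in that annotation. JAL34 was at -0.03 ± 0.10 in pfd4 and fell by 0.22 ± 0.09 in 6x_pfd (adjusted p = 0.0488) in the authors' deposited tables, so the overlapping genes did not share a direction there. The library kit keeps strand, but the sources used here do not say whether counting used it. PYK10 likewise overlaps AT3G09250 on the opposite strand. PBP1 and its neighbour JAL31 share 89.0% of their coding bases and 100 bases in a row, and their counts carry the same uncertainty as those of BGLU21 and BGLU22.

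**Figure D2:**
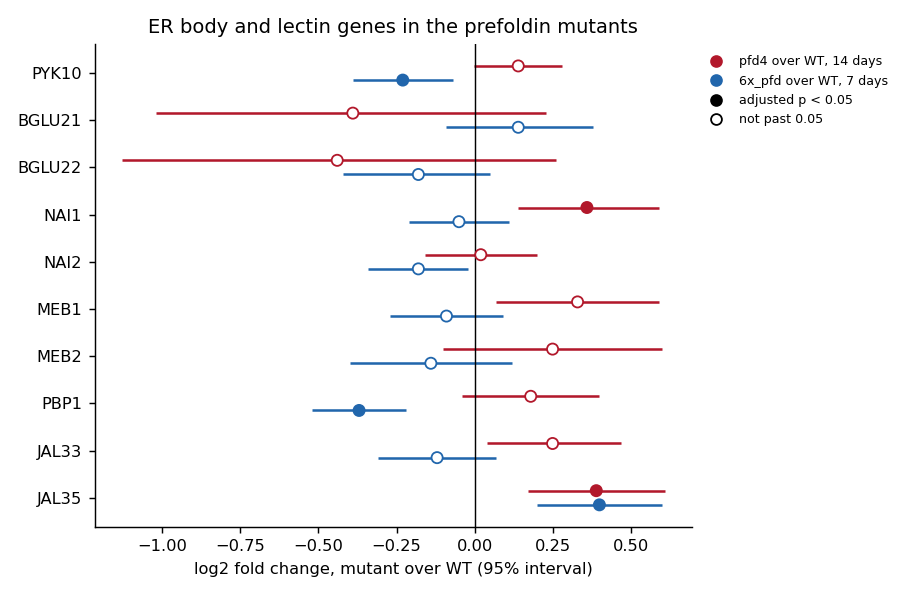
Log2 fold change (mutant over WT) of each of the 10 genes with its 95% interval, for pfd4 at 14 days (red) and 6x_pfd at 7 days (blue), with filled points for an adjusted p below 0.05. NAI1 and JAL35 are filled above 0 in pfd4, and JAL35 above 0 and PYK10 and PBP1 below 0 in 6x_pfd, while BGLU21 and BGLU22 have the widest intervals, in pfd4.

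In all, 2 of the 10 genes passed in pfd4, both higher, where 7.75% of all tested genes passed, 3.94% higher and 3.81% lower. In 6x_pfd 3 of 10 passed, 1 higher and 2 lower, against 33.6% of all tested genes (16.9% higher and 16.8% lower), a share close to that of the 10 genes. Log2 fold changes above 0 were found for 8 of the 10 in pfd4, with a median of 0.21, beside 49.3% of all genes and a median of -0.003. In 6x_pfd 2 of 10 lay above 0, with a median of -0.13, beside 50.2% of all genes and a median of 0.0014. In 6x_pfd the 95% interval of every one of the 10 genes stayed within a change of 2-fold either way, from -0.52 to 0.60 on the log2 scale, and in pfd4 this held for 8 of 10, the exceptions being BGLU21 and BGLU22. None of the 10 changed by 1 or more on the log2 scale, as 1.08% of all genes did, past the threshold, in pfd4 and 6.12% in 6x_pfd. At an FDR of 0.01 no call in pfd4 remained, PBP1 and JAL35 remained in 6x_pfd, and none of the calls in either mutant passed a test against a 25% change or with an empirical null.

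The mutant effects were then set against each other, by subtracting the log2 fold change in 6x_pfd from that in pfd4 and dividing by the combined SE (Wald test, two-sided, Benjamini-Hochberg adjusted over 18035 genes). The difference passed for 5 of 10 genes, all with the higher fold change in pfd4, where 23.8% of all genes passed, 12.0% with the higher fold change in pfd4 and 11.8% with the lower. It lay above 0 for 7 of the 10 genes and 50.4% of all, and reached 1 in none of the 10 and, past the threshold, in 5.94% of all. It was 0.55 ± 0.13 for PBP1 (adjusted p = 4.26e-04) and 0.37 ± 0.11 for PYK10 (adjusted p = 0.00558). NAI1 and MEB1 each differed by 0.42, with SEs of 0.14 and 0.16 and adjusted p = 0.0196 and 0.04, and JAL33 by 0.37 ± 0.14 (adjusted p = 0.0434). At an FDR of 0.01, 2 of these 5 calls remained, PBP1 and PYK10, and 0 remained in a test against a 25% change, with an empirical null or with Holm's correction. JAL35 differed by -0.01 ± 0.15, with an interval of -0.31 to 0.28, and BGLU21 by -0.54 ± 0.34, with an interval of -1.21 to 0.13. NAI2 and MEB2 were at 0.20 ± 0.12 and 0.39 ± 0.22, and BGLU22 at -0.25 ± 0.38, none of them past the threshold. Genotype, age and light regime change together between the experiments, so their parts in these differences cannot be told apart.

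The tissue markers moved as well. Of 9 root markers in the pfd4 table, 2 fell and none rose, among them CASP2 at -0.66 ± 0.16 in the authors' deposited table. All 9 lay below 0, with a median of -0.59 and mean counts summing to 3205. Of 10 root markers in the 6x_pfd table, 3 rose and 2 fell, with a median of 0.02 and mean counts summing to 9065, in the authors' deposited table. Those that rose included the root hair genes EXPA7 (0.60 ± 0.16) and COBL9 (0.52 ± 0.17), and those that fell were the iron transporter gene IRT1 (-1.26 ± 0.25) and the phosphate transporter gene PHT1;1 (-0.83 ± 0.09), in the authors' deposited table. NRT2.1 was in neither table. Of 5 leaf markers, 2 rose in pfd4 (median 0.21) and 3 fell in 6x_pfd (median -1.03), in the authors' deposited tables. Those that fell were the light-harvesting genes LHCB2.3 (-1.62 ± 0.16), CAB3 (-1.36 ± 0.18) and CAB1 (-1.03 ± 0.10), while the Rubisco small subunit genes RBCS1A (0.16 ± 0.16) and RBCS1B (0.13 ± 0.18) did not pass there, in the authors' deposited table. Of all tested genes, 3.94% were higher and 3.81% lower in pfd4, and 16.9% were higher and 16.8% lower in 6x_pfd. Fewer cells of a type and less RNA per cell cannot be told apart in whole seedlings. The part of tissue makeup in the values of the 10 genes was not tested.

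Other proteins of the ER body gave larger values. BGLU18 rose by 2.02 ± 0.13 in pfd4 (adjusted p = 6.05e-52) and by 1.29 ± 0.13 in 6x_pfd (adjusted p = 3.60e-22) in the authors' deposited tables. TSA1, the close relative of NAI2, rose by 1.27 ± 0.12 (adjusted p = 4.42e-25) and 0.94 ± 0.13 (adjusted p = 3.07e-11) in the authors' deposited tables. The mean counts of BGLU18 were 10685 and 9814, and those of TSA1 were 2034 and 2097, so neither is a gene of low counts. BGLU18 and TSA1 follow each other on the same strand of chromosome 1. Their measured neighbours AT1G52380 and AT1G52420 lay between -0.03 and 0.11 in the authors' deposited tables and passed in neither mutant. The coding sequences of NAI2 and TSA1 share 71.8% of their bases and those of PYK10 and BGLU18 69.8%, with no identical stretch beyond 33 bases. The difference between the mutant effects was 0.74 ± 0.18 for BGLU18 (adjusted p = 5.27e-04) and 0.34 ± 0.18 for TSA1 (adjusted p = 0.163).

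BGLU19, another beta-glucosidase of this group, was at -0.47 ± 0.27 in pfd4 (adjusted p = 0.35) and rose by 1.98 ± 0.35 in 6x_pfd (adjusted p = 2.37e-07) in the authors' deposited tables. The lectin gene AT3G21380, its next measured neighbour on one side on chromosome 3, was at -0.35 ± 0.35 and 2.04 ± 0.23 (adjusted p = 0.672 and 7.40e-18) in the authors' deposited tables. So both genes of this pair rose in 6x_pfd, and neither passed in pfd4. The differences of -2.44 ± 0.44 and -2.39 ± 0.42 passed the test (adjusted p = 8.63e-07 and 3.05e-07). AT3G21360, which overlaps BGLU19 on the opposite strand, was at 0.03 ± 0.14 and 0.20 ± 0.12 in the authors' deposited tables and did not pass. BGLU20 was in neither table.

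**Figure D3:**
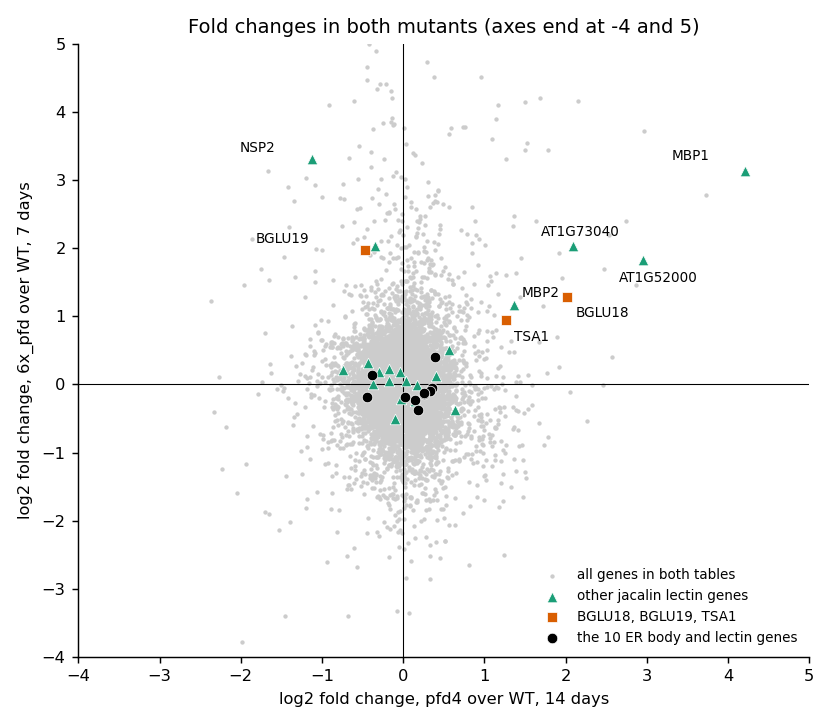
Log2 fold change in pfd4 at 14 days (horizontal) against that in 6x_pfd at 7 days (vertical) for all genes in both tables (grey, those beyond the axes not drawn), the 10 ER body and lectin genes (black circles), BGLU18, BGLU19 and TSA1 (orange squares) and other jacalin lectin genes (green triangles). The 10 genes lie within 0.44 of 0 on both axes, while MBP1 stands at 4.21 and 3.14 and BGLU18 at 2.02 and 1.29.

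Besides the 10 genes, the annotation names 47 genes as jacalin-type lectins, myrosinase-binding proteins or nitrile-specifier proteins 1 to 4. The nitrile-specifier genes are counted again among the specifier protein genes below. Of the 47 genes, 22 were in the pfd4 table and 28 in the 6x_pfd table. In pfd4 6 rose and none fell, with a median of -0.0002, beside 3.94% of all tested genes higher and 3.81% lower. In 6x_pfd 10 rose and 2 fell, with a median of 0.18, beside 16.9% higher and 16.8% lower. MBP1, a myrosinase-binding protein gene, rose by 4.21 ± 0.21 in pfd4 and 3.14 ± 0.16 in 6x_pfd, and AT1G52000 by 2.95 ± 0.15 and 1.83 ± 0.16, in the authors' deposited tables. MBP2 rose by 1.36 ± 0.17 and 1.17 ± 0.20, and AT1G73040 by 2.09 ± 0.25 and 2.04 ± 0.23, in the authors' deposited tables. The mean counts of AT1G73040 were 77.2 and 140.4, the lowest of these 4 genes. MBP1 and MBP2 share 83.6% of coding bases and up to 66 bases in a row.

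AT1G52000, MBP2 and MBP1 lie next to one another among the measured genes of a row of lectin genes on chromosome 1. Farther along the same row, AT1G52050, AT1G52060 and AT1G52070 lay between -0.37 and 0.18 in both mutants and did not pass in the authors' deposited tables. AT1G52100, also in that row, rose by 0.64 ± 0.16 in pfd4 (adjusted p = 0.00206) and fell by 0.38 ± 0.08 in 6x_pfd (adjusted p = 2.24e-05) in the authors' deposited tables. In the lectin row of chromosome 3 that holds PBP1, JAL33 and JAL35, no measured gene changed by 1 or more on the log2 scale in either mutant. There, NSP1, a nitrile-specifier protein with a lectin domain, was at 0.17 ± 0.09 and -0.01 ± 0.11, and JAL31 at 0.15 ± 0.18 and -0.25 ± 0.11, in the authors' deposited tables, and neither passed. MLP-300B was at -0.74 ± 0.29 and 0.21 ± 0.12 in the authors' deposited tables and did not pass. JAL22, a lectin gene of chromosome 2, rose by 0.40 ± 0.10 in pfd4 (adjusted p = 0.00268) and was at 0.12 ± 0.13 in 6x_pfd in the authors' deposited tables.

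**Figure D4:**
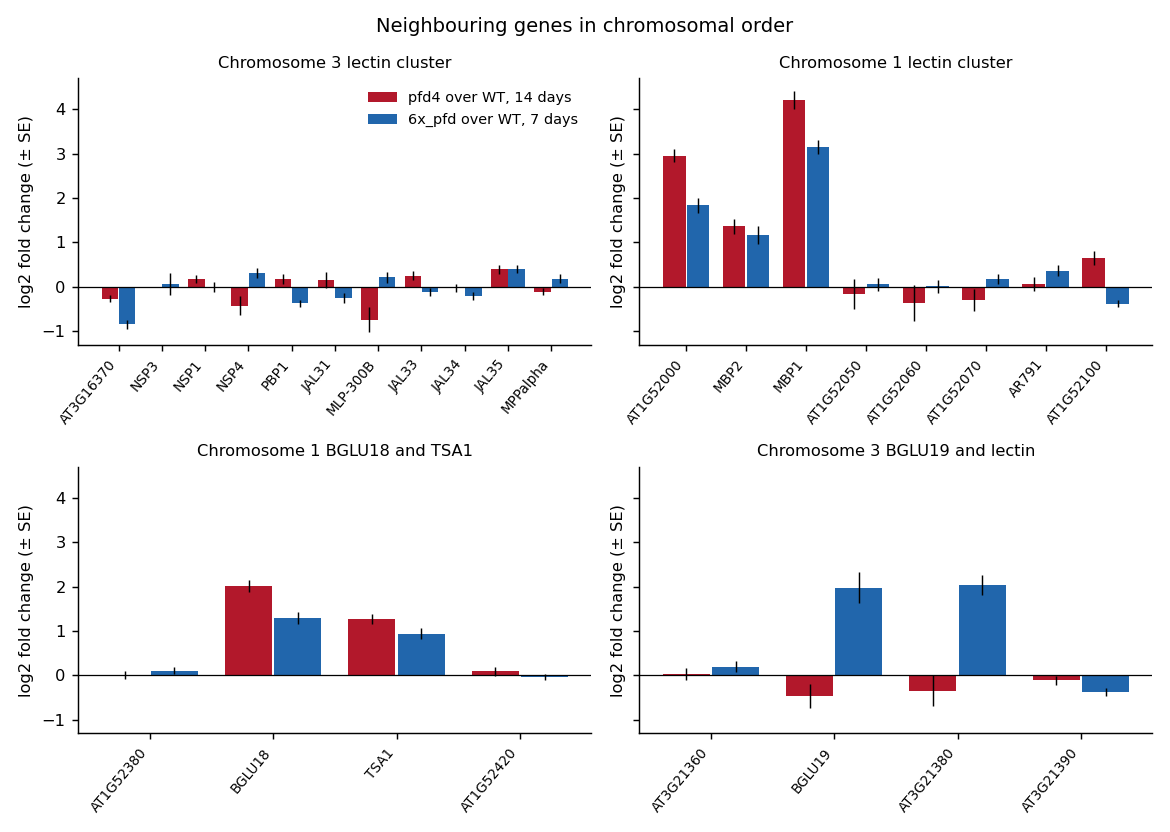
Log2 fold change (bars, ± SE) of neighbouring genes in chromosomal order in pfd4 at 14 days (red) and 6x_pfd at 7 days (blue), for the lectin rows of chromosomes 3 and 1, the BGLU18 and TSA1 pair, and the BGLU19 pair, with genes in neither table left out. AT1G52000, MBP2, MBP1, BGLU18 and TSA1 stand between 0.94 and 4.21 in both mutants, BGLU19 and AT3G21380 are high in 6x_pfd, and the genes around PBP1 stay within 0.85 of 0.

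The GDSL lipase-like proteins are further components of the PYK10 complex. GLL23 rose by 0.48 ± 0.11 in pfd4 (adjusted p = 8.14e-04) and fell by 0.35 ± 0.08 in 6x_pfd (adjusted p = 9.76e-05) in the authors' deposited tables, a difference of 0.83 ± 0.14 between the mutant effects (adjusted p = 6.45e-08). GLL22 was at -0.50 ± 0.45 and -0.09 ± 0.10, and GLL25 at 0.15 ± 0.13 and 0.0003 ± 0.07, in the authors' deposited tables, and neither passed. The SE of GLL22 in pfd4 was larger than that of 99.3% of 6672 genes of like mean count. AT1G54020 rose by 2.36 ± 0.38 in pfd4, with a mean count of 36.9, in the authors' deposited table and was not in the 6x_pfd table. ESM1, which alters the products of glucosinolate breakdown, fell by 0.51 ± 0.10 in pfd4 and by 0.85 ± 0.17 in 6x_pfd in the authors' deposited tables.

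Thioglucosidases that split glucosinolates, called myrosinases, include abundant leaf forms that did not pass in either mutant. TGG1 was at -0.22 ± 0.12 and -0.13 ± 0.09 and TGG2 at -0.07 ± 0.13 and -0.05 ± 0.13 in the authors' deposited tables. The root form TGG5 fell by 1.38 ± 0.43 in pfd4 (adjusted p = 0.0223) and rose by 0.42 ± 0.11 in 6x_pfd (adjusted p = 8.81e-04) in the authors' deposited tables. Its mean count at 14 days was 98.4. Its SE in pfd4 was larger than that of 98.3% of 3625 genes of like mean count. Of the 11 myrosinase and specifier protein genes, 1 of 9 measured fell in pfd4 and none rose, and 6 of 11 rose in 6x_pfd and none fell, beside 3.81% of all tested genes lower in pfd4 and 16.9% higher in 6x_pfd. In 6x_pfd they included NSP2 (3.31 ± 0.45), ESP (0.64 ± 0.15) and NSP5 (0.63 ± 0.11) in the authors' deposited table. NSP2 had a mean count of 104.2 in that table.

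Of the regulators, MYC2, a transcription factor of the jasmonate response, rose by 0.35 ± 0.09 in pfd4 (adjusted p = 0.00572) and was at 0.33 ± 0.18 in 6x_pfd (adjusted p = 0.147) in the authors' deposited tables. MYC3, MYC4 and the jasmonate receptor gene COI1 lay between -0.21 and 0.08 and passed in neither mutant in the authors' deposited tables. AT4G37850, a relative of NAI1 with a mean count of 46.3, fell by 0.83 ± 0.31 in 6x_pfd in the authors' deposited table. AT2G22750 and AT2G22760, its other relatives in the list, were in neither table.

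Coumarin glucosides are candidate substrates of BGLU21, BGLU22 and PYK10. No coumarin gene of 5 measured passed in pfd4, where 2 of them (PDR9 and F6'H1) had an unadjusted p below 0.05 in DESeq2's test, and F6'H1 was at -1.73 ± 0.81 in the authors' deposited table. In 6x_pfd 2 of 4 fell, the hydroxylase gene CYP82C4 (-2.53 ± 0.32) and the exporter gene PDR9 (-0.41 ± 0.09), in the authors' deposited table. General ER folding and retention genes lay between -0.24 and 0.12 in pfd4 in the authors' deposited table, with no call among 7 in DESeq2's test and 2 at an unadjusted p below 0.05. In 6x_pfd 2 of 7 rose, ERD2A (0.33 ± 0.12) and the chaperone gene BIP2 (0.21 ± 0.08), in the authors' deposited table. Of all tested genes, 7.75% passed in pfd4, beside none of these 5 coumarin genes and 7 ER genes. An unadjusted p below 0.05 in DESeq2's test was found there for 3484 of all 18366 genes. In 6x_pfd 16.9% of all tested genes were higher and 16.8% lower, beside these counts of 2 of 7 higher and 2 of 4 lower.

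**Figure D5:**
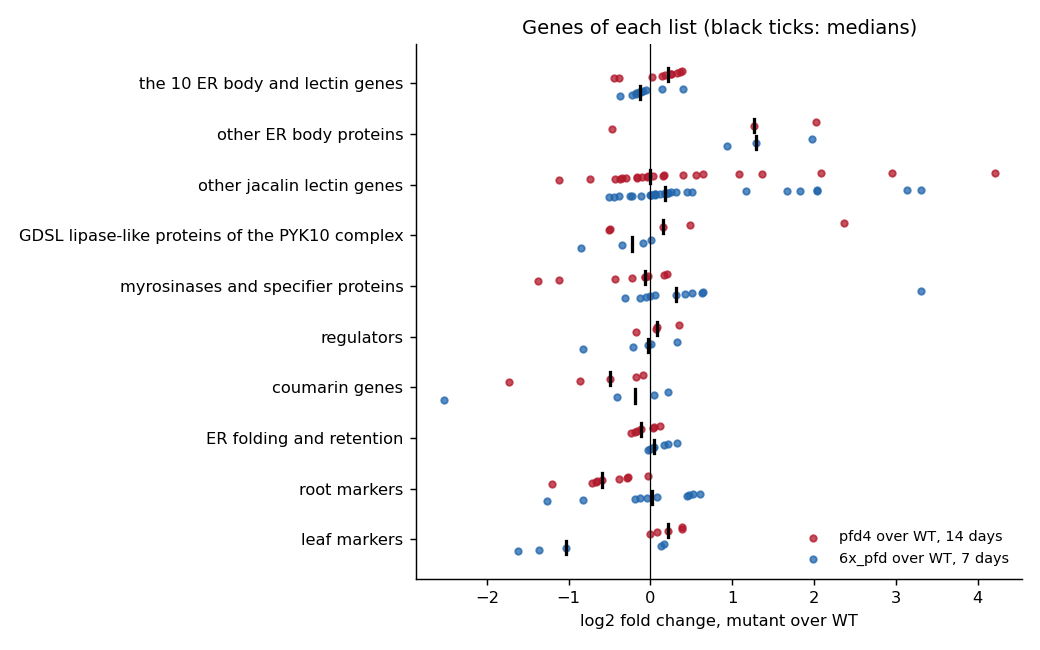
Log2 fold change, mutant over WT, of each measured gene of the 10 lists (points) in pfd4 at 14 days (red) and 6x_pfd at 7 days (blue), with black ticks at the medians. The medians of the 10 ER body and lectin genes are 0.21 in pfd4 and -0.13 in 6x_pfd, those of the other ER body proteins 1.27 and 1.29, and those of the root markers -0.59 and 0.02.

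The genes whose pair of log2 fold changes lay nearest to that of PYK10 were MGT7, a magnesium transporter, AT1G32360, AL1, AT1G61780 and AT1G55140, at distances of 0.004 to 0.007 on the log2 scale. None is a gene of the lists above. The likeness rests on 2 comparisons, and 751 of the 16079 genes compared (those with a mean count of at least 100 in both tables) lay within 0.1 of PYK10, so many genes share its pair of values.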

How the data were processed

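Stranded mRNA libraries of 12 whole-seedling samples were grouped by title. Per the submitters' processing notes, cutadapt, HISAT2, HTSeq and DESeq2 were used with TAIR10, and no versions or order are given. The 2 deposited tables list per gene, per the file headers, a normalized count averaged over libraries (a signal value), a log2 fold change with SE, a Wald score, and the p-value and adjusted p of DESeq2, and their names state a minimum RPKM. The score equalled the log2 fold change over its SE within 6.8e-11, and the adjusted p equalled Benjamini-Hochberg values computed here within 2.7e-15. The median SE was 0.126 for pfd4 and 0.121 for 6x_pfd, and the mean counts summed to 29221246 and 32374115. The sources used here do not say which libraries entered the mean counts.

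Values per library were not analysed here, so depth per library and the spread between replicates are known only through the SE, and the planned count models were replaced by the deposited values. Computed here were 95% intervals (1.96 SE), counts per kb of exon, and the Wald test of the difference between mutants, tested on simulated data (Python 3.11.15, SciPy 1.17.1). The simulation drew its noise from the deposited SEs, so it could not show whether those SEs are too small. Exon lengths, coding identity (Biopython 1.88) and neighbours came from the RefSeq annotation of TAIR10.1, which matched 18288 and 19310 IDs. No coordinates or sequences are given because the named builds differ.

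The members and lists were chosen with earlier results of these data known. Genes named besides the 10 are those of lists of up to 6 genes, the 4 smallest p-values per comparison of longer lists, and the 5 nearest to PYK10. JAL22, JAL31, JAL34, NSP1, TGG2, MLP-300B, the genes of the chromosome 1 and 3 rows and the additional beta-glucosidases were chosen after their values were seen. The values of 1 root marker are not reported here. Alternatives were an FDR of 0.01, a minimum change, a test against a 25% change, 2 centrings, a minimum mean count of 100, an empirical null and, chosen after seeing the data, Holm's correction.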

Additional observations from a re-analysis of the deposited data

Results flagged for a closer look

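The difference between the mutant effects (log2, pfd4 at 14 days minus 6x_pfd at 7 days) passed an adjusted p of 0.05 for the following genes named in the report or under the other observations. Genotype, age and light regime cannot be told apart in it.

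Among the 10 ER body and lectin genes it was 0.55 for PBP1, 0.42 for NAI1, 0.42 for MEB1, 0.37 for PYK10 and 0.37 for JAL33. Among other genes of the ER body and its complex it was 0.83 for GLL23, 0.74 for BGLU18 and -2.44 for BGLU19, and for the ER chaperone gene BIP2 -0.45. Among other lectin genes it was 1.12 for AT1G52000, 1.06 for MBP1, 1.02 for AT1G52100, -0.95 for MLP-300B and -2.39 for AT3G21380.

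For myrosinase and specifier genes it was -1.80 for TGG5, -0.66 for NSP5, -0.74 for NSP4 and -4.43 for NSP2. For other beta-glucosidases it was -0.93 for BGLU11 and -4.0002 for DIN2, and for the coumarin gene CYP82C4 2.35. Markers that differed were EXPA7 (-1.31), CASP2 (-0.63) and CASP5 (-1.67) of the root, and CAB3 (1.74), CAB1 (1.24) and LHCB2.3 (2.002) of the leaf. Of the genes nearest to PYK10, AT1G32360 and AL1 each differed by 0.38. They were picked for values close to those of PYK10, so this difference follows from the choice.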

How the results depend on the processing

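Counts of the 10 genes called were 2 in pfd4, 3 in 6x_pfd and 5 in the difference, and stayed so under both centrings and the minimum mean count. At an FDR of 0.01 they were 0, 2 and 2. A minimum log2 change of 1, the test against a 25% change and the empirical null each left 0 in all 3. Holm's correction left 0, 1 (PBP1) and 0. Beside the 0 in pfd4, 4 of the 10 genes had an unadjusted p below 0.05 in DESeq2's test, as had 3484 of all 18366 genes.

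All genes called numbered 1423 in pfd4, 6519 in 6x_pfd and 4299 in the difference. In pfd4 they were 835 at an FDR of 0.01. With the minimum change they were 198, 1186 and 1071, in the test against a 25% change 201, 1956 and 1327, under the empirical null 352, 933 and 475, and with Holm's correction 322, 2282 and 1134. The thresholds are stricter by construction. The empirical null divides the Wald scores by their scale over all genes (1.38 in pfd4 and 2.33 in 6x_pfd), and the cause of those scales was not tested.

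Of 240 values of the 10 genes under the alternatives, 194 kept direction and call, 45 lost the call and 1 changed sign, the uncalled difference of JAL35 (0.0034 centred on the median of the more abundant genes). Under that centring the uncalled RBCS1B in pfd4 was at 0.01 and the uncalled difference of TGG2 at 0.0020, and centred on the median GLL25 in 6x_pfd was at -0.0011.

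No paired analysis was possible because the tables hold no values per library, and for the same reason the fits without single replicates, with edgeR or with other size factors were not run.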

Other observations

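The annotation names 44 beta-glucosidase genes other than PYK10, BGLU21 and BGLU22. They include genes already described, among them BGLU18, BGLU19, BGLU42 and the myrosinases. In pfd4 4 of 26 measured rose and 3 fell, with a median log2 fold change of -0.10. Of all tested genes there, 3.94% were higher and 3.81% lower. In 6x_pfd 14 of 30 measured rose and 3 fell, with a median of 0.25, beside 16.9% of all tested genes higher and 16.8% lower. DIN2, a sugar-starvation gene of leaves, fell by 1.87 ± 0.38 in pfd4 (adjusted p = 7.25e-05) and rose by 2.13 ± 0.28 in 6x_pfd (adjusted p = 2.65e-13) in the authors' deposited tables. BGLU11 was at 0.21 ± 0.21 in pfd4 and rose by 1.14 ± 0.08 in 6x_pfd in the authors' deposited tables. BGLU24 rose by 2.09 ± 0.31 in 6x_pfd in the authors' deposited table, with a mean count of 87.4, and was not in the pfd4 table. This family was picked out after the values were seen.

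SEs far above those of genes of like mean count recurred in pfd4 at 14 days among genes of root metabolism. F6'H1 stood at the 99.8 percentile, CYP82C4 at 99.6, IRT1 at 99.4 and PHT1;1 at 99.2, beside GLL22 at 99.3, BGLU22 at 98.8 and BGLU21 at 98.5. At 7 days the percentiles were 94.2 for F6'H1, 96.8 for CYP82C4, 97.9 for IRT1, 47.1 for PHT1;1 and 68.1 for GLL22. Which libraries carried that spread is not known from these tables.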
